A study of Homo sapiens and Mus musculus with 10 samples.

Results

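The genes described here encode histone deacetylases, sirtuins, lysine demethylases, lysine methyltransferases, protein arginine methyltransferases and 4 acetyltransferases. They were taken by symbol, as the HDAC, SIRT, KDM, SETD, SMYD, PRMT and EHMT families plus EZH1, EZH2, NSD1, SUV39H1, SUV39H2, KAT2A, KAT2B, EP300 and CREBBP, leaving out the sex-linked KDM5C and KDM5D. The choice used no measured value. It gave 67 of 27800 symbols in the human table and 66 of 24493 in the mouse table, and SETD9 was listed in the human table alone. With a mean of at least 1 TPM over the libraries of a line, 63 of 67 human and 63 of 66 mouse genes could be tested. TPM, the unit of the tables, is the share of a library that a gene takes per unit of transcript length.

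RNA was sequenced from a pair of myeloid cell models to ask what inhibition of KAT6A does to their transcription. WM-1119 is a small molecule inhibitor of KAT6A, which acetylates histones and belongs to the MYST family, and DMSO is the control. MOLM-13, a human acute myeloid leukaemia line with an MLL fusion gene, was given 4 µM WM-1119 for 4 days, with 3 WM-1119 and 3 DMSO libraries. ER-Hoxa9, mouse myeloid progenitors kept immature by a HOXA9 protein that estrogen switches on, was given 2 µM for 4 days, with 2 WM-1119 and 2 DMSO libraries. Both treatments of ER-Hoxa9 were grown with medium that supplies stem cell factor and with β-estradiol, which keeps the HOXA9 protein active. Each line is a single model, so species, dose, culture and line cannot be told apart. The labels do not say whether replicates were separate cultures, so the p-values rest on a spread among libraries that may be only technical.

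Histone tails carry acetyl and methyl groups that are written and erased by opposing enzymes. Acetyltransferases add acetyl groups to lysines and open chromatin, and zinc-dependent deacetylases and NAD-dependent sirtuins remove them. Methyltransferases with a SET domain methylate lysines, flavin-dependent and JmjC demethylases reverse this, and arginine methyltransferases act on histones, splicing proteins and ribosomal proteins. In myeloid cells several of these enzymes, among them LSD1 (KDM1A), EZH2, p300 (EP300) and PRMT5, are known as controllers of differentiation and as drug targets in leukaemia.

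None of these genes passed the test for a change with WM-1119 in either line. With limma and Benjamini-Hochberg adjustment over all genes, 0 of 63 genes had an adjusted p under 0.05 in MOLM-13, where 0.00804% of all 12436 genes did, and 0 of 63 in ER-Hoxa9, where 0.0352% of all 11362 genes did. The lowest adjusted p among them was 1 in MOLM-13 and 0.312 in ER-Hoxa9, for Sirt3, and over the alternative settings the lowest in ER-Hoxa9 ran from 0.2 to 0.824. At an unadjusted p under 0.05, 0 genes of the group were found in MOLM-13, against 2.08% of all genes higher and 0.965% lower. In ER-Hoxa9 there were 4 higher ones (Hdac1, Hdac3, Hdac6 and Sirt2) against 11.6% of all genes, and 2 lower ones (Sirt3 and Prmt5) against 1.13% of all genes.

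The size of the intervals limits what could have been missed. In ER-Hoxa9 the 95% interval of the log2 change lay within 1 unit of 0 for 63 of 63 genes, which held for 83.6% of all genes. In MOLM-13 it did so for 58 of 63 genes, against 82.3% of all genes. The exceptions were KDM3A, KDM5B, KDM7A, SUV39H1 and EP300. For KDM5B the estimate itself was -0.50, with an SE of 0.23 against a median SE of 0.24 over the group.

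In MOLM-13, libraries with the same replicate number deviated together, so a fit with the number as a block was set beside the first. It called 0 of 63 genes, as it called 0% of all genes, and the lowest adjusted p was 0.168, for SMYD2. The lowest adjusted p over the alternative settings ran from 0.168 to 1. At an unadjusted p under 0.05 the blocked fit held 6 higher genes, HDAC1, HDAC6, KDM2B, SETD9, SMYD2 and PRMT2, which is 9.52% of the group against 13.2% of all genes. It held 4 lower genes, SIRT7, KDM1A, KDM4B and KDM5B, which is 6.35% against 4.91% of all genes. All 63 blocked intervals lay within 1 log2 unit of 0, against 92.3% of all genes. Intervals of both fits are on log2(TPM + 1), which understates the change of low genes, so they bound the fold change of such genes less well. KDM7A, at a mean of 1.28 TPM, had a blocked interval that reached -0.97.

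**Figure D1:**
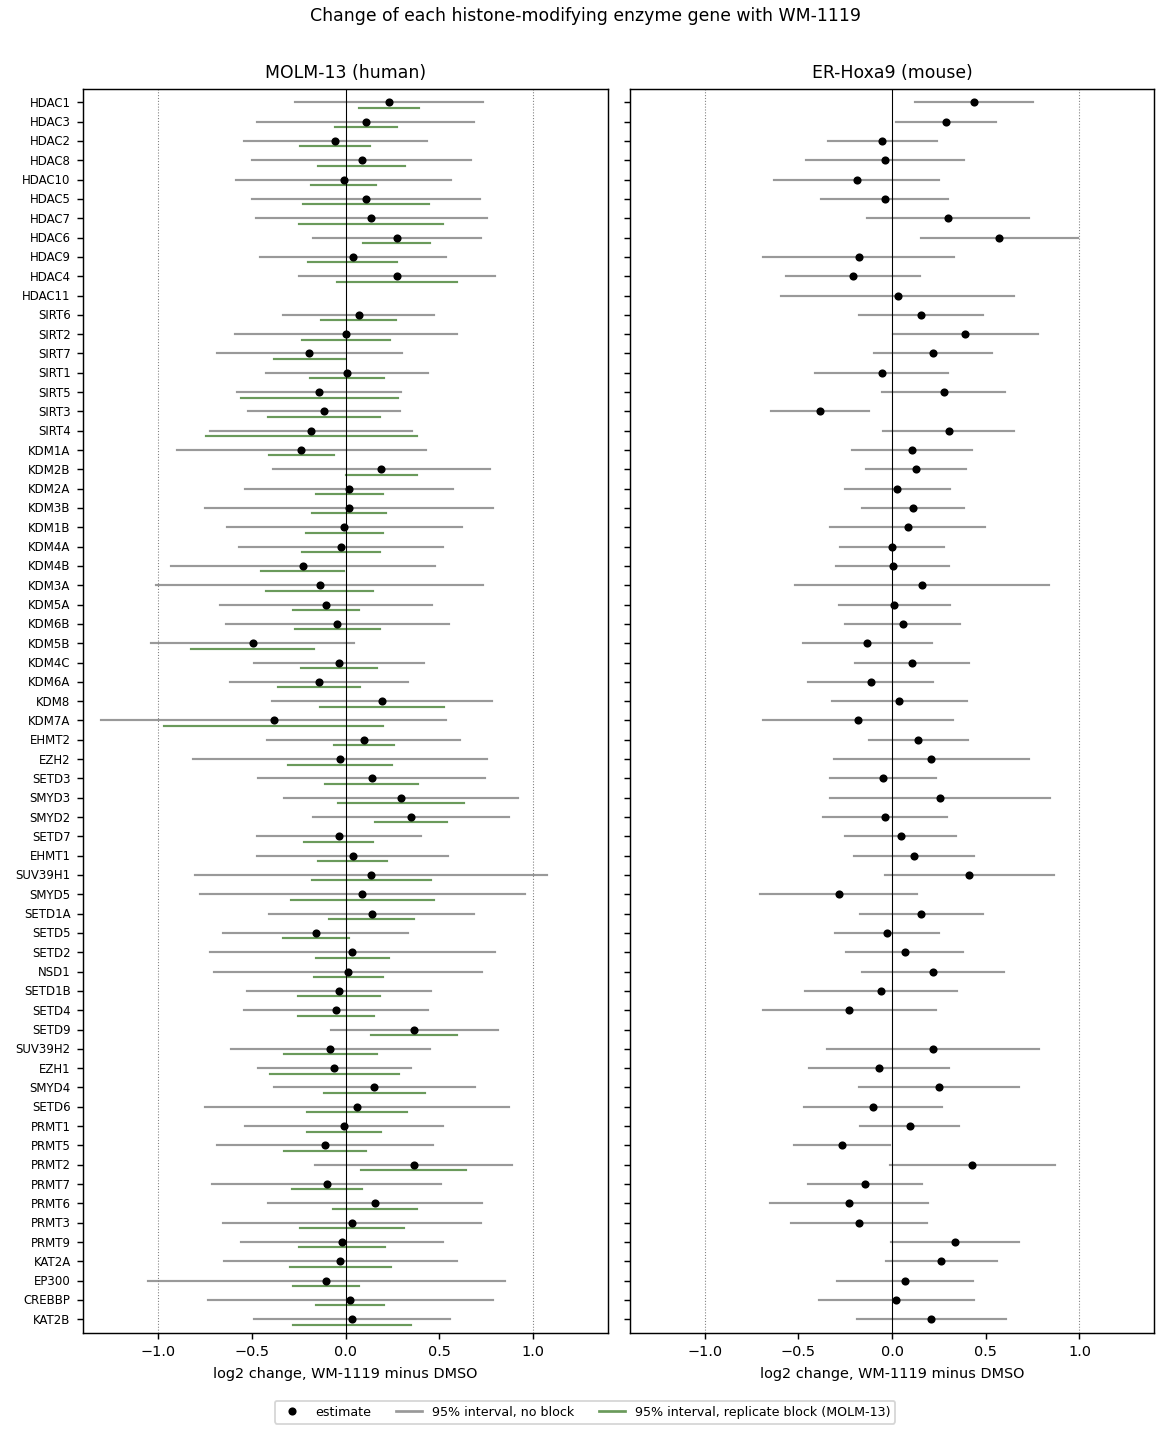
Estimated log2 change (WM-1119 minus DMSO, on log2(TPM + 1)) of each tested gene in MOLM-13 (left) and ER-Hoxa9 (right), with grey bars for the 95% interval of the fit without a block and green bars for the fit with the replicate block in MOLM-13. The estimates lie between -0.50 (KDM5B) and 0.37 (SETD9) in MOLM-13 and between -0.39 (Sirt3) and 0.57 (Hdac6) in ER-Hoxa9.

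Over all libraries the median change of the group was slightly below that of all genes. In MOLM-13, 33 of 63 genes had a log2 change above 0, against 61.5% of all genes, and the median was 0.01 against 0.05 over all genes. In ER-Hoxa9, 39 of 63 were above 0, against 71.9% of all genes, and the median was 0.06 against 0.12 over all genes. Relative to that general shift of 0.12 most of the mouse genes were lower, and after median-of-ratios scaling, which sets the typical gene to no change, 23 of 63 were above 0 in ER-Hoxa9 and 22 of 63 in MOLM-13. In MOLM-13 the count also turned on single libraries, with 16 of 63 above 0 without DMSO replicate 3, 20 without WM-1119 replicate 1, 46 without WM-1119 replicate 3 and 47 without DMSO replicate 1. In the last cases the order of the medians turned, at 0.140 for the group against 0.118 over all genes without WM-1119 replicate 3, and at 0.145 against 0.141 without DMSO replicate 1.

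The most abundant gene of the group in both lines was PRMT1, the main enzyme of asymmetric arginine methylation, and HDAC1 came next in both. The tables were normalized separately and come from different species, so levels of the lines are set side by side without a test. PRMT1 had 432, 343 and 329 TPM in the WM-1119 libraries of MOLM-13 and 479, 336 and 309 TPM in the DMSO libraries, and the groups overlapped. In ER-Hoxa9, Prmt1 had 268 and 256 TPM with WM-1119 and 252 and 239 TPM with DMSO, a log2 difference of 0.09 that became -0.03 after median-of-ratios scaling.

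Both lines differed in which paralogs they used. Among the NAD-dependent deacetylases, the mitochondrial Sirt3 stood at 82.5 and 85.7 TPM with WM-1119 and 112 and 108 TPM with DMSO in ER-Hoxa9. In MOLM-13, SIRT3 stood at 3.76, 3.55 and 4.17 TPM with WM-1119 and 4.88, 3.84 and 3.99 TPM with DMSO, and SIRT6 led the sirtuins with a mean of 38.4 TPM. The H3K4 demethylase KDM5B averaged 10.0 TPM over the MOLM-13 libraries and 34.6 TPM over the ER-Hoxa9 libraries. For the arginine methyltransferase PRMT2 the order was the other way, with a mean of 28.7 TPM in MOLM-13 and 5.81 TPM in ER-Hoxa9. KDM1B, a flavin-dependent demethylase, averaged 23.6 TPM in MOLM-13 and 4.00 TPM in ER-Hoxa9, and the methyltransferase SMYD3 24.99 TPM and 3.46 TPM.

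A few genes were listed at or near 0. PRMT8, known as a brain enzyme, was listed at 0 in all 10 libraries. SMYD1, a muscle methyltransferase, was at most 0.0130 TPM in MOLM-13 and 0.0191 TPM in ER-Hoxa9. KDM4D stayed under 0.175 TPM in every library but the DMSO replicate 2 of MOLM-13, which held that value. HDAC11, the only class IV deacetylase, averaged 0.564 TPM in MOLM-13 and 1.58 TPM in ER-Hoxa9, so it was tested in the mouse line alone.

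**Figure D2:**
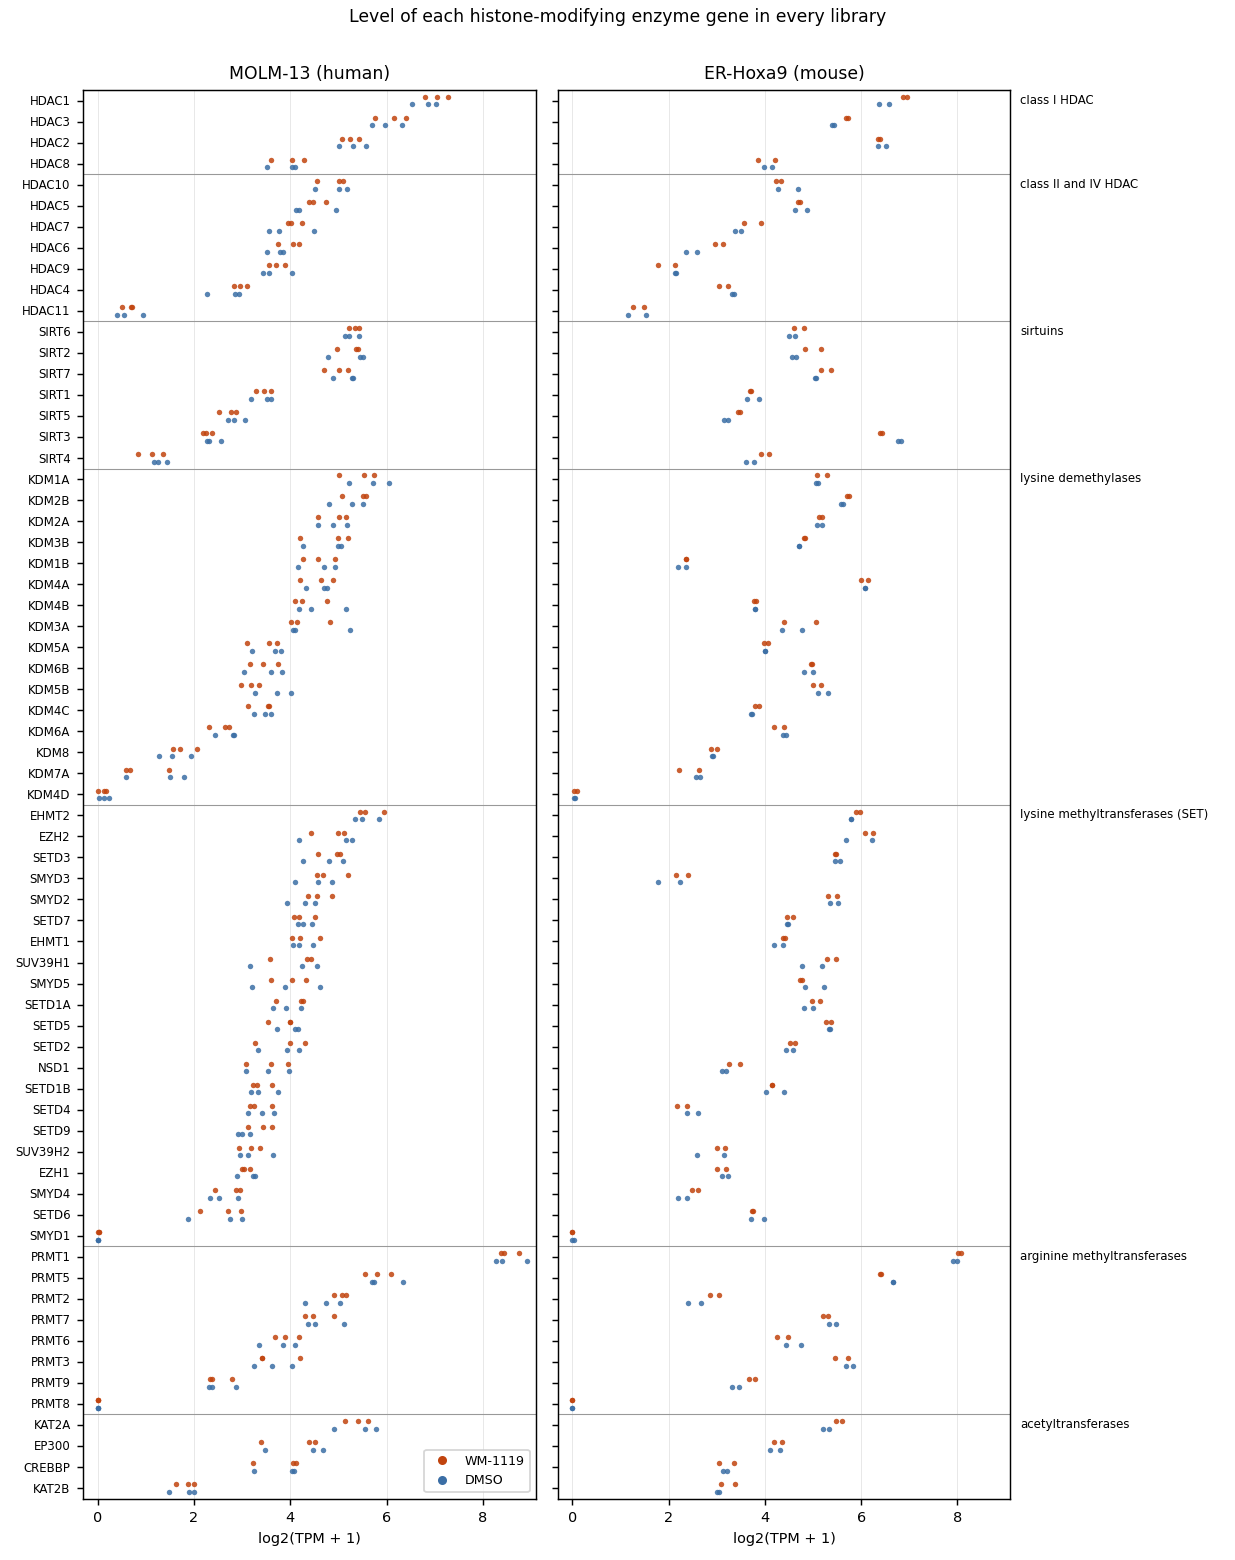
Level of every gene as log2(TPM + 1), each point 1 library, with WM-1119 in orange above DMSO in blue, for MOLM-13 (left) and ER-Hoxa9 (right), grouped by enzyme class. PRMT1 and HDAC1 lead in both panels, and SIRT3 lies at 3.55 to 4.88 TPM in MOLM-13 but at 82.5 to 112 TPM in ER-Hoxa9.

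Of the class I deacetylases, HDAC1 and HDAC2 are catalytic subunits of the NuRD, SIN3 and CoREST co-repressors, and HDAC3 is that of NCoR/SMRT. HDAC1 had 153, 131 and 110.5 TPM in the WM-1119 libraries of MOLM-13, against 129.6, 115 and 91.5 TPM in DMSO. It was higher with WM-1119 within every same-numbered pair while the groups overlapped. The log2 difference was 0.23 with a 95% interval from -0.27 to 0.73 (adjusted p = 1, limma), and 0.07 to 0.39 with the replicate block (adjusted p = 0.195). Over the alternatives the difference lay between 0.09 and 0.35, and the adjusted p between 0.195 and 1.

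In ER-Hoxa9, Hdac1 had 122 and 116 TPM with WM-1119 and 81.4 and 94.9 TPM with DMSO. Both WM-1119 libraries were above both DMSO libraries, and the log2 difference was 0.44 with an interval from 0.12 to 0.75 (adjusted p = 0.313). Hdac3 had 52.2 and 50.6 TPM with WM-1119 and 42.5 and 41.3 TPM with DMSO, also without overlap, and a log2 difference of 0.29 (adjusted p = 0.375). In MOLM-13, HDAC3 had 83.4, 69.7 and 52.9 TPM with WM-1119 and 78.6, 61.9 and 50.5 TPM with DMSO. It was higher in all 3 pairs by little, with a log2 difference of 0.11 and a blocked interval from -0.06 to 0.27.

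HDAC2 did not share this pattern in either line. It had 42.0, 36.7 and 32.6 TPM with WM-1119 and 46.5, 38.7 and 31.4 TPM with DMSO in MOLM-13. In ER-Hoxa9, Hdac2 had 80.7 and 83.1 TPM with WM-1119 and 80.2 and 89.9 TPM with DMSO. The unscaled groups overlapped in both lines, with log2 differences of -0.05 in each. After median-of-ratios scaling both lines had HDAC2 lower without overlap, against 4.39% of all genes in MOLM-13 and 21.4% in ER-Hoxa9. The same held after quantile normalization, against 4.4% and 24.9%. Throughout, overlap is stated for unscaled TPM unless a scaling is named. HDAC8, the deacetylase of the cohesin subunit SMC3, had overlapping groups, with means of 15.0 TPM (WM-1119) and 14.0 TPM (DMSO) in MOLM-13, and of 15.5 TPM (WM-1119) and 15.8 TPM (DMSO) in ER-Hoxa9.

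Among the class II deacetylases, HDAC6, the cytoplasmic tubulin deacetylase, had the largest difference of the group in the mouse line. Hdac6 had 6.85 and 7.71 TPM with WM-1119 and 4.14 and 5.02 TPM with DMSO, with no overlap, a log2 difference of 0.57 and an interval from 0.15 to 0.99 (adjusted p = 0.313). In MOLM-13, HDAC6 had 17.2, 15.7 and 12.3 TPM with WM-1119 and 13.4, 12.8 and 10.5 TPM with DMSO. It was higher in each pair, by 0.27 log2 units, with a blocked interval from 0.09 to 0.45 (adjusted p = 0.186, against 1 without the block). Over the alternatives the difference lay between 0.36 and 0.69 in ER-Hoxa9 and between 0.17 and 0.40 in MOLM-13.

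The signal-controlled class IIa enzymes, which repress MEF2 factors, had differences of both signs. HDAC4 had 7.62, 6.75 and 6.11 TPM with WM-1119 and 6.67, 6.26 and 3.82 TPM with DMSO in MOLM-13, higher in all 3 pairs. In ER-Hoxa9 the order was opposite, with 8.39 and 7.24 TPM under WM-1119 and 9.03 and 9.28 TPM under DMSO. The differences were 0.27 and -0.21 log2 units, and the test of the difference between the lines gave an adjusted p of 1. HDAC5, HDAC7 and HDAC9 had log2 differences of 0.11, 0.14 and 0.04 in MOLM-13, where their DMSO replicate 2 libraries held the highest value of each, and each sign turned when a single library was left out. In the mouse line Hdac7 alone of the class IIa genes was higher without overlap, as were 40.3% of all genes. It had 10.8 and 14.2 TPM with WM-1119 and 9.39 and 10.3 TPM with DMSO. Its groups overlapped after median-of-ratios scaling and after quantile normalization. The most abundant class II gene was HDAC10, a polyamine deacetylase, in MOLM-13 and Hdac5 in ER-Hoxa9, at means of 29.1 TPM and 25.6 TPM. HDAC10 had 31.2, 22.3 and 33.2 TPM with WM-1119 and 31.0, 21.8 and 35.0 TPM with DMSO, with overlap. Hdac5 had 24.9 and 25.4 TPM with WM-1119 and 23.7 and 28.3 TPM with DMSO, also with overlap.

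The sirtuins of ER-Hoxa9 split by gene. Sirt3, the main mitochondrial deacetylase, had the lowest p of the group, with the values above giving a log2 difference of -0.39 and an interval from -0.65 to -0.12 (adjusted p = 0.312). Both WM-1119 libraries were below both DMSO libraries. Sirt2, the cytoplasmic sirtuin, had 34.9 and 27.5 TPM with WM-1119 and 24.0 and 22.8 TPM with DMSO, a log2 difference of 0.39 with an interval from 0.01 to 0.78 (adjusted p = 0.387). Sirt4, Sirt5 and Sirt7 were also higher without overlap, by 0.30, 0.28 and 0.22 log2 units. Sirt4 had 14.1 and 15.9 TPM with WM-1119 and 11.2 and 12.7 TPM with DMSO, and Sirt5 had 10.2 and 9.83 TPM with WM-1119 and 7.85 and 8.39 TPM with DMSO. Sirt4 overlapped after quantile normalization. Nuclear Sirt1 had 11.8 and 12.1 TPM with WM-1119 and 11.4 and 13.6 TPM with DMSO, and the groups overlapped.

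In MOLM-13 the sirtuins had small differences. SIRT6, the chromatin-bound H3K9 deacetylase, had 42.0, 36.3 and 39.7 TPM with WM-1119 and 41.9, 36.4 and 34.2 TPM with DMSO. SIRT1 had 11.1, 10.0 and 8.72 TPM with WM-1119 and 11.1, 10.5 and 8.10 TPM with DMSO. Both genes overlapped between the treatments. SIRT7, which acts in the nucleolus, was the exception within pairs, with 35.4, 24.8 and 31.3 TPM with WM-1119 and 37.7, 28.7 and 38.5 TPM with DMSO. It was lower in all 3 pairs, by 0.19 log2 units, with a blocked interval from -0.38 to -0.0049 and an adjusted p of 0.27. In ER-Hoxa9, Sirt7 had 40.6 and 34.9 TPM with WM-1119 and 32.1 and 32.3 TPM with DMSO, so the order was opposite.

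Of 15 lysine demethylases tested in MOLM-13, 4 had a log2 difference above 0, against 61.5% of all genes, and 11 below it. Their median was -0.04. After either rescaling 2 of 15 lay above 0. In ER-Hoxa9, 11 of 15 lay above 0, against 71.9% of all genes, with a median of 0.04. After either rescaling, where the share of all genes was not computed, 2 of 15 did. None was called in either line, where the lowest adjusted p was 1 and 0.615.

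KDM5B, an H3K4 demethylase, had the largest difference of the group in MOLM-13 on log2(TPM + 1). With a pseudocount of 0.1 TPM the low-level KDM7A came first, at -0.65 against -0.54 for KDM5B. KDM5B had 9.15, 8.14 and 6.83 TPM with WM-1119 and 12.2, 15.1 and 8.62 TPM with DMSO. Each WM-1119 library was below its paired DMSO library, and the groups overlapped only through WM-1119 replicate 1 and DMSO replicate 3. The log2 difference was -0.50 with an interval from -1.04 to 0.04 (unadjusted p = 0.066, limma), and from -0.82 to -0.17 with the replicate block (adjusted p = 0.185). Over the alternatives it lay between -0.70 and -0.32. In ER-Hoxa9, Kdm5b had 34.9 and 30.9 TPM with WM-1119 and 38.9 and 33.5 TPM with DMSO, with overlapping groups and a log2 difference of -0.13.

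KDM1A, or LSD1, is the flavin-dependent demethylase of the CoREST complex. It led the demethylases in MOLM-13 with 52.3, 44.9 and 31.4 TPM under WM-1119 and 65.2, 51.8 and 36.03 TPM under DMSO. It was lower in all 3 pairs, with a log2 difference of -0.24 and a blocked interval from -0.41 to -0.06 and an adjusted p of 0.203. In ER-Hoxa9, Kdm1a had 38.2 and 32.8 TPM with WM-1119 and 33.4 and 32.3 TPM with DMSO, and the groups overlapped. The line difference of KDM1A gave an adjusted p of 1.

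The H3K27 demethylases showed small differences. KDM6B, an inducible enzyme, had 7.97, 9.79 and 12.3 TPM with WM-1119 and 7.26, 11.1 and 13.1 TPM with DMSO in MOLM-13, with overlap. Kdm6b had 30.4 and 30.2 TPM with WM-1119 and 31.1 and 27.2 TPM with DMSO in ER-Hoxa9, also with overlap. KDM6A, or UTX, was lower in all 3 MOLM-13 pairs, at 5.60, 5.27 and 3.93 TPM with WM-1119 and 6.05, 6.14 and 4.43 TPM with DMSO, a log2 difference of -0.14. Kdm6a had 17.2 and 20.1 TPM with WM-1119 and 19.8 and 20.6 TPM with DMSO in ER-Hoxa9, with overlap.

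KDM4B, an H3K9 and H3K36 demethylase, had 16.1, 26.1 and 17.9 TPM with WM-1119 and 17.2, 34.6 and 20.7 TPM with DMSO in MOLM-13. It was lower in each pair, and both replicate 2 libraries stood far above the rest. KDM3A, an H3K9 demethylase, showed the same high replicate 2 libraries, at 27.3 TPM with WM-1119 and 36.6 TPM with DMSO against 15.1 to 16.5 TPM in the other 4 libraries. In ER-Hoxa9 the leading demethylase was Kdm4a, with 69.4 and 63.1 TPM with WM-1119 and 66.3 and 66.2 TPM with DMSO, a log2 difference of -0.0017. KDM2B, which binds CpG islands as part of a PRC1 complex, was higher in all 3 MOLM-13 pairs and without overlap in ER-Hoxa9. Its values were 46.7, 44.6 and 32.6 TPM with WM-1119 and 44.3, 38.1 and 26.8 TPM with DMSO in MOLM-13, and 52.7 and 51.2 TPM with WM-1119 and 48.2 and 46.8 TPM with DMSO in ER-Hoxa9.

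Of the lysine methyltransferases, 13 of 20 had a log2 difference above 0 in MOLM-13, against 61.5% of all genes. In ER-Hoxa9 it was 11 of 19, against 71.9%. After either rescaling, where the share of all genes was not computed, the counts were 10 of 20 and 8 of 19. The unscaled medians of the class were 0.05 and 0.07, and none of its genes was called. The H3K9 enzyme EHMT2, or G9a, was the most abundant of them in MOLM-13, with 60.6, 46.2 and 42.4 TPM under WM-1119 and 56.1, 43.8 and 39.3 TPM under DMSO. It was higher in all 3 pairs, by 0.10 log2 units. Ehmt2 had 61.8 and 58.7 TPM with WM-1119 and 54.5 and 54.6 TPM with DMSO in ER-Hoxa9, without overlap, a log2 difference of 0.14 that is close to the general shift.

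EZH2 and EZH1 are the H3K27 methyltransferases of PRC2. EZH2 had 33.5, 30.9 and 20.5 TPM with WM-1119 and 37.8, 34.5 and 17.2 TPM with DMSO in MOLM-13, with overlap, an estimate of -0.03 and a blocked interval from -0.31 to 0.25. Ezh2 had 66.8 and 75.3 TPM with WM-1119 and 50.6 and 74.0 TPM with DMSO in ER-Hoxa9, where it led the lysine methyltransferases. Its difference of 0.21 rested on DMSO replicate 1, and without that library it was -0.06. EZH1 was the lower paralog in both lines, at 7.96, 6.93 and 7.26 TPM with WM-1119 and 6.40, 8.61 and 8.36 TPM with DMSO in MOLM-13. Ezh1 had 8.21 and 7.08 TPM with WM-1119 and 8.45 and 7.67 TPM with DMSO in ER-Hoxa9.

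SUV39H1 trimethylates H3K9 in heterochromatin. In ER-Hoxa9 it had 43.7 and 38.2 TPM with WM-1119 and 26.3 and 35.3 TPM with DMSO, higher without overlap by 0.41 log2 units, with an interval from -0.04 to 0.86 (adjusted p = 0.408). In MOLM-13, SUV39H1 had 20.5, 19.5 and 10.9 TPM with WM-1119 and 22.5, 17.9 and 7.89 TPM with DMSO, and its sign turned with single libraries. The H3K36 trimethylase SETD2 had 18.6, 14.9 and 8.63 TPM with WM-1119 and 17.1, 14.2 and 9.11 TPM with DMSO in MOLM-13. Setd2 had 22.0 and 23.8 TPM with WM-1119 and 20.7 and 23.1 TPM with DMSO in ER-Hoxa9. Groups overlapped for SETD2 in both lines.

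The smallest p of this class in MOLM-13 belonged to a pair of less studied genes. SETD9, a SET domain protein, had 11.3, 7.66 and 9.74 TPM with WM-1119 and 7.93, 6.48 and 7.02 TPM with DMSO. It was higher in every pair, by 0.37 log2 units, with a blocked interval from 0.14 to 0.59 (adjusted p = 0.173). The lysine methyltransferase SMYD2 had 28.2, 22.4 and 19.7 TPM with WM-1119 and 21.7, 18.8 and 14.2 TPM with DMSO, a log2 difference of 0.35 and a blocked interval from 0.16 to 0.54 (adjusted p = 0.168). Both had an adjusted p of 1 without the block. Smyd2 in ER-Hoxa9 had 44.3 and 38.7 TPM with WM-1119 and 45.1 and 40.1 TPM with DMSO, with overlap.

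PRMT5, the main enzyme of symmetric arginine methylation, was the second arginine methyltransferase by level in both lines. In ER-Hoxa9 it had 82.7 and 83.7 TPM with WM-1119 and 101 and 99.9 TPM with DMSO, lower without overlap, with a log2 difference of -0.27 and an interval from -0.52 to -0.01 (adjusted p = 0.378). In MOLM-13, PRMT5 had 67.1, 54.7 and 46.1 TPM with WM-1119 and 79.9, 52.5 and 50.8 TPM with DMSO, with overlap and a blocked interval from -0.33 to 0.11. Without scaling PRMT7, which makes monomethylarginine, was the only gene of the group lower in all 3 MOLM-13 pairs and without overlap in ER-Hoxa9. That pattern held for 2.09% of the 8726 symbols tested in both lines. After median-of-ratios scaling further genes of the group shared it, and the share of all symbols was not computed there. PRMT7 had 28.9, 21.1 and 18.9 TPM with WM-1119 and 33.5, 21.9 and 19.5 TPM with DMSO in MOLM-13. In ER-Hoxa9, Prmt7 had 38.7 and 36.1 TPM with WM-1119 and 43.8 and 39.2 TPM with DMSO. The log2 differences were -0.10 and -0.14, and in MOLM-13 the sign turned without DMSO replicate 1 and without WM-1119 replicate 3.

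PRMT2, a type I arginine methyltransferase, was higher in both. It had 32.8, 34.7 and 28.9 TPM with WM-1119 and 25.6, 31.5 and 18.6 TPM with DMSO in MOLM-13, above its control in each pair, by 0.36 log2 units with a blocked interval from 0.08 to 0.65 (adjusted p = 0.214, against 1 without the block). Prmt2 had 6.30 and 7.30 TPM with WM-1119 and 4.29 and 5.35 TPM with DMSO in ER-Hoxa9, without overlap, by 0.43 log2 units with an interval from -0.01 to 0.87 (adjusted p = 0.395). Prmt3, which methylates ribosomal protein, and Prmt6 had log2 differences of -0.17 and -0.23 in ER-Hoxa9, with overlapping groups. Prmt3 had 52.1 and 42.6 TPM with WM-1119 and 56.01 and 50.8 TPM with DMSO, and Prmt6 had 21.3 and 17.97 TPM with WM-1119 and 25.95 and 20.6 TPM with DMSO.

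The acetyltransferases that act against the deacetylases had small differences in MOLM-13. KAT2A, or GCN5, had 47.6, 34.1 and 41.5 TPM with WM-1119 and 53.6, 28.98 and 45.9 TPM with DMSO in MOLM-13, with overlap. Kat2a had 47.3 and 43.5 TPM with WM-1119 and 39.3 and 36.04 TPM with DMSO in ER-Hoxa9, without overlap, a log2 difference of 0.26 (adjusted p = 0.419). EP300 had 21.8, 19.999 and 9.52 TPM with WM-1119 and 24.5, 21.0 and 10.1 TPM with DMSO in MOLM-13, lower in each pair with a log2 difference of -0.10 and a blocked interval from -0.28 to 0.07. Its paralog CREBBP had 16.4, 15.7 and 8.40 TPM with WM-1119 and 15.3, 15.8 and 8.49 TPM with DMSO. In ER-Hoxa9, Ep300 had 17.3 and 19.6 TPM with WM-1119 and 16.1 and 19.0 TPM with DMSO. Crebbp had 7.22 and 9.20 TPM with WM-1119 and 7.74 and 8.29 TPM with DMSO. The groups of both genes overlapped. KAT2B was the least abundant of the 4 in both lines, at means of 2.54 TPM and 7.81 TPM.

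Set across the lines, a few genes lay on the same side. In MOLM-13, 13 of 63 genes were higher in all 3 pairs, against 28.6% of all genes, and 10 were lower in all 3, against 14.4% of all genes. No gene of the group had groups without overlap there, against 4.54% of all genes higher and 2.43% lower. In ER-Hoxa9, 22 of 63 were higher without overlap, against 40.3% of all genes, and 6 were lower without overlap, against 7.94%. Of 62 genes tested in both lines, 7 were higher in all 3 MOLM-13 pairs and without overlap in ER-Hoxa9, against 16% of the 8726 symbols. They were EHMT2, HDAC1, HDAC3, HDAC6, KDM2B, PRMT2 and SMYD4, which is 58.3% of the 12 genes on the MOLM-13 side and 31.8% of the 22 on the mouse side. SMYD4, a SET and MYND domain protein, had 6.71, 6.33 and 4.39 TPM with WM-1119 and 6.58, 4.76 and 4.06 TPM with DMSO in MOLM-13, and 5.07 and 4.61 TPM with WM-1119 and 3.58 and 4.25 TPM with DMSO in ER-Hoxa9.

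Scaling narrowed that list. After median-of-ratios scaling 3 of the 7, HDAC1, HDAC6 and PRMT2, met both conditions, against 7.25% of all symbols, and the same 3 did after quantile normalization. The lower side widened with median-of-ratios scaling, where 16 of 63 genes were lower in all 3 MOLM-13 pairs, against 23.1% of all genes. Some of these, PRMT7 among them, were also lower without overlap in ER-Hoxa9. They are not counted or listed, because the share of all symbols with that joint lower pattern was not computed after scaling. With median-of-ratios scaling HDAC1, HDAC4, HDAC6 and SMYD2 lay above all DMSO libraries of MOLM-13 without overlap, against 4.58% of all genes, and HDAC2 and KDM5B below, against 4.39%. After quantile normalization HDAC1 overlapped and the other 5 did not. In ER-Hoxa9, 12 of 63 genes lay, with median-of-ratios scaling, above without overlap, against 23.2% of all genes, and 27 below, against 21.4%. The opposite patterns held 1 gene each without scaling, HDAC4 (higher in MOLM-13 and lower in ER-Hoxa9, against 1.26% of symbols) and SIRT7 (lower in MOLM-13 and higher in ER-Hoxa9, against 3.83%).

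The test of whether a gene changed differently in the lines, limma over all 10 libraries, called 0 of 62 genes, against 0.0229% of the symbols. The lowest adjusted p was 1, with 0 genes at an unadjusted p under 0.05, against 2.12% of the symbols, and over the alternatives the lowest ran from 0.235 to 1. With the replicate number as a block in both lines 0 of 62 genes were called, against 0.0344% of the symbols. At an unadjusted p under 0.05 that fit held 7 genes, HDAC4, KDM1A, PRMT6, PRMT9, SIRT2, SIRT7 and SMYD2, which is 11.3% of the group against 14.5% of the symbols. A p above the threshold does not show that the lines responded alike.

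**Figure D3:**
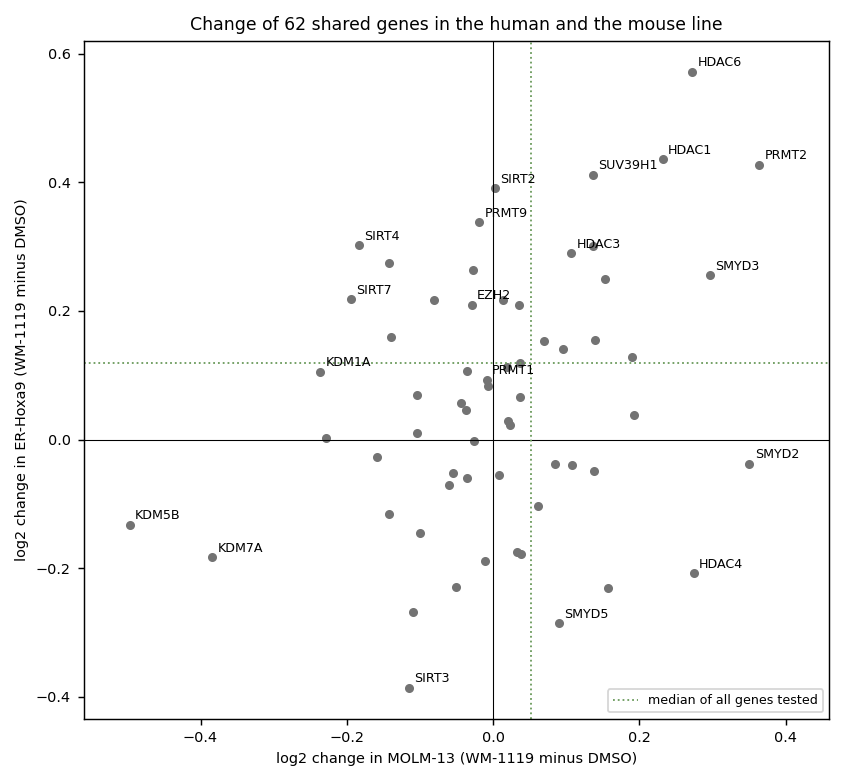
Log2 change with WM-1119 of the 62 genes tested in both lines, MOLM-13 on the x axis and ER-Hoxa9 on the y axis, with dotted lines at the median of all genes tested (0.05 and 0.12). HDAC1, HDAC6 and PRMT2 lie at the upper right and KDM5B at the far left.

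**Figure D4:**
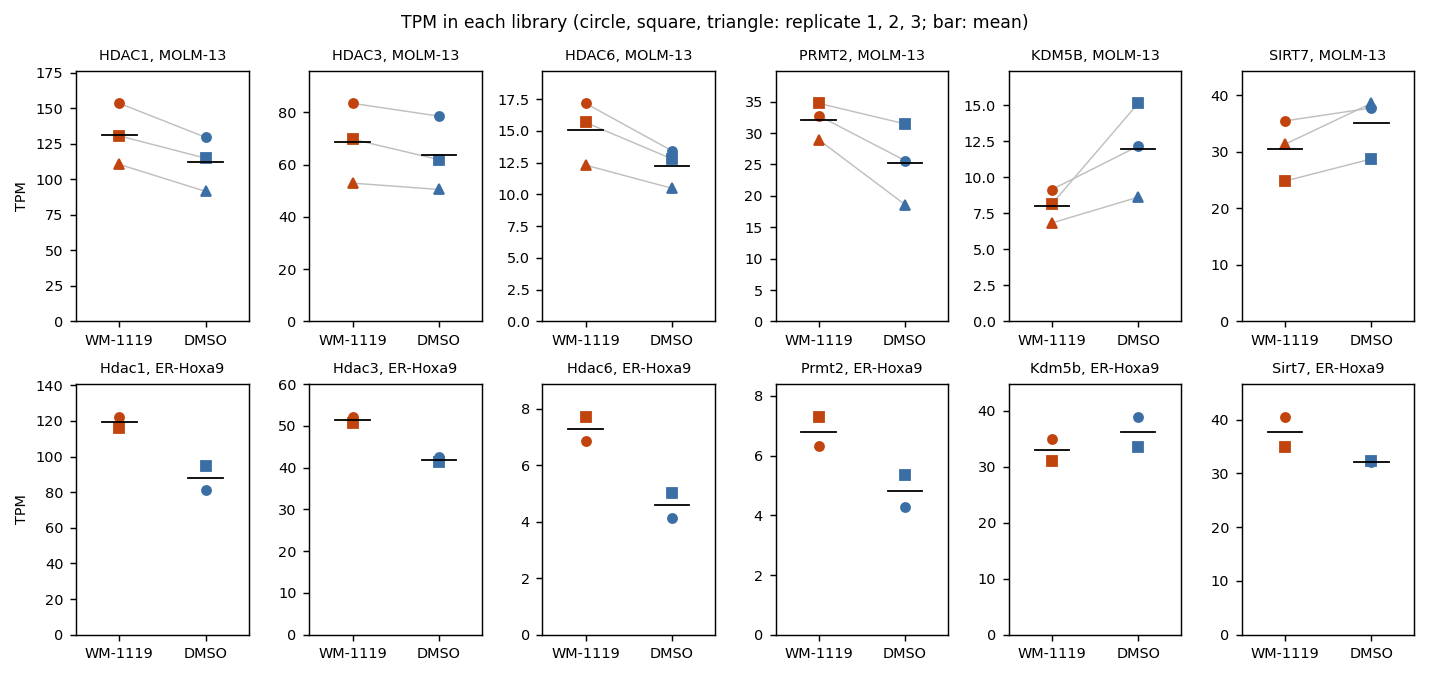
TPM in each library for HDAC1, HDAC3, HDAC6, PRMT2, KDM5B and SIRT7, with WM-1119 left of DMSO, MOLM-13 in the upper row and ER-Hoxa9 in the lower. Grey lines join same-numbered MOLM-13 libraries, all of which slope the same way within a gene, while the ranges of the groups overlap.

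The promoters of HDAC1, HDAC3, PRMT2 and KDM5B are printed as examples, chosen after their values were seen, of the 13 genes higher (28.6% of all genes were) and the 10 lower (14.4% of all genes) in all 3 MOLM-13 pairs. HDAC1, HDAC3 and PRMT2 were higher with WM-1119 and KDM5B was lower. Each is the 250 bases before the RefSeq start on GRCh38.p14, 5′ to 3′ on the gene's strand. In GENCODE release 29 the outermost starts of PRMT2 and KDM5B, at 46635167 and 202809470, lie upstream of their windows. The first transcribed bases were found in a GENCODE transcript for HDAC3, PRMT2 and KDM5B, but not for HDAC1. Capitals mark matches on either strand to the GC box GGGCGG, the ETS core CCGGAAG, the CCAAT box CCAAT, the E-box CACGTG, the TATA box TATAAA and the NRF1 site, a pair of GCGC stretches around a short spacer. HDAC1 is read from chr1:32291833-32292082 on the plus strand, HDAC3 from chr5:141636850-141637099 on the minus strand, PRMT2 from chr21:46635424-46635673 on the plus strand and KDM5B from chr1:202808422-202808671 on the minus strand.
HDAC1: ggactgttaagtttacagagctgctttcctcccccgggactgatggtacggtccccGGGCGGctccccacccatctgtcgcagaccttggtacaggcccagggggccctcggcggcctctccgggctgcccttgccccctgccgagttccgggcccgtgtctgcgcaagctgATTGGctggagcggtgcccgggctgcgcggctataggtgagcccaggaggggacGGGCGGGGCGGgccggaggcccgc
HDAC3: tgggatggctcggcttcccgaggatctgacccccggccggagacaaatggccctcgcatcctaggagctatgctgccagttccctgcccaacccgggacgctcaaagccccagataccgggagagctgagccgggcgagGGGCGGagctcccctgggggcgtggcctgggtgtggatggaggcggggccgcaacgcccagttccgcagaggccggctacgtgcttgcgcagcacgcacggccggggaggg
PRMT2: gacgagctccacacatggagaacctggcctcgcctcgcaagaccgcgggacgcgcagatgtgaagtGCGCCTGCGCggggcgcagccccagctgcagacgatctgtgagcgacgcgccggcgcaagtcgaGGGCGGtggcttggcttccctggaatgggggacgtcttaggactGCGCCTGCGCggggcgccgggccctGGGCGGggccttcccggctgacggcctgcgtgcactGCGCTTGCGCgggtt
KDM5B: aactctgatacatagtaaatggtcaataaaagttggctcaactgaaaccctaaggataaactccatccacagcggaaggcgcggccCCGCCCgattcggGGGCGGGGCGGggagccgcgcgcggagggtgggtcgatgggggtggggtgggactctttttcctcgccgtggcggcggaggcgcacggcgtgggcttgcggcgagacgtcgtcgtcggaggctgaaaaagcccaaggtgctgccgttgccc

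All 4 windows are rich in G and C, at 71.6%, 70.8%, 72% and 64%, against a median of 58% over all promoters. HDAC1 and KDM5B hold 3 GC boxes each, a pair of which overlap, PRMT2 holds 2 and HDAC3 holds 1. The GC box was found in 42.6% of 35116 promoters and in 44 of the 64 genes of the group that had one. PRMT2 is the only one of the 4 with the NRF1 site, which it holds 3 times, and 10 of 64 genes hold it against 5.07% of promoters. A CCAAT box stands in the HDAC1 window, as in 21 of 64 genes and 32% of promoters. The ETS core was in 11 of 64 genes and 8.52% of promoters, the E-box in 9 and 6.34%, and the TATA box in 1 and 10.7%. A match is a string of letters and says nothing of binding.

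The spread between replicate numbers of MOLM-13 was set beside the treatment difference. The range between the means of the 3 numbers exceeded the treatment difference for 60 of 63 genes, against 89.7% of all genes, with a median range of 0.57 log2 units and a median size of the difference of 0.10. The exceptions were KDM5B, SIRT4 and SIRT5. The replicate 3 library was the lowest in both treatments for 39 of 63 genes, or 61.9%, against 44.7% of all genes. The median offset of replicate 3 from the other numbers was -0.37 log2 units in the group and -0.21 over all genes.

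The genes farthest down in replicate 3 encode acetyltransferases, methyltransferases and a demethylase of the nucleus. The offset was -1.08 log2 units for EP300, -1.03 for SUV39H1, and -0.83, -0.83 and -0.82 for CREBBP, EZH2 and KDM3B. KDM7A, KDM6B and HDAC10 were higher in replicate 3, by 0.80, 0.47 and 0.37. Across the 63 genes the offset correlated with the length of the longest coding transcript by r = -0.18, and across 10721 genes by r = -0.26, which describes these libraries only. The log2 change with WM-1119 in MOLM-13 correlated with length by r = -0.32 across the 63 genes and by r = -0.14 across the 10721. Ribosomal protein genes took 33.9% of the WM-1119 library and 39.8% of the DMSO library of replicate 3, and 25.7% to 28.4% of the other 4. In ER-Hoxa9 they took 28.6% and 27.5% of the WM-1119 libraries and 33.6% and 29.6% of the DMSO libraries, and with these genes removed the median change of all genes there was 0.058, with 29 of 63 genes of the group above 0. HBB, an erythroid gene singled out after its values were seen, was at 49.4 TPM in the WM-1119 library and 52.1 TPM in the DMSO library of replicate 3 and at most 0.140 TPM in the other 4. The part of these features in the results was not tested, and without the replicate 3 pair the blocked fit called 0 of 63 genes, with a lowest adjusted p of 0.544.

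**Figure D5:**
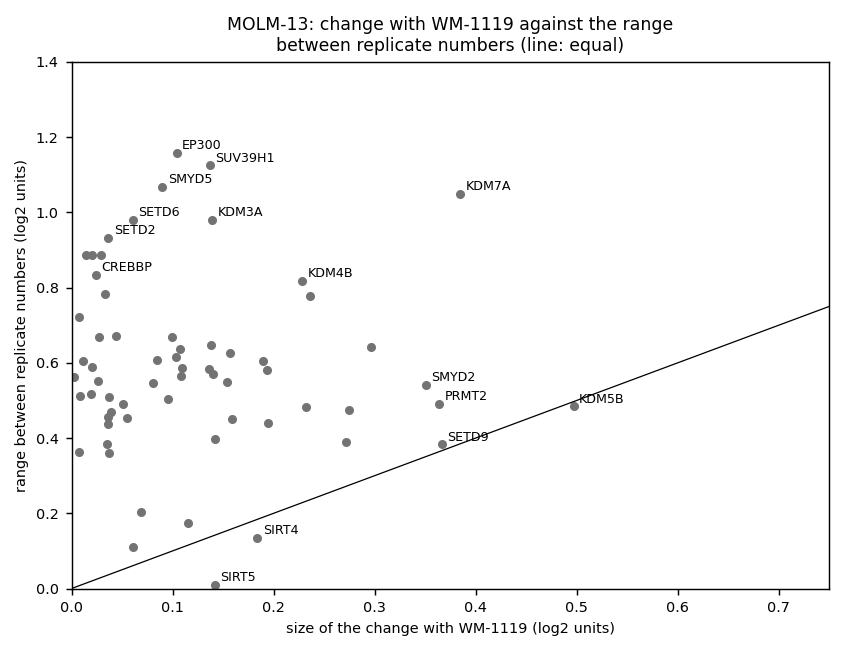
For each of 63 genes in MOLM-13, the size of the log2 change with WM-1119 (x axis) and the range between the means of the 3 replicate numbers (y axis), with the line of equality. All but KDM5B, SIRT4 and SIRT5 lie above the line, and EP300 and SUV39H1 lie highest.

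None of the partners of these enzymes was called either, against 0.00804% of all genes in MOLM-13 and 0.0352% in ER-Hoxa9. Of all genes, 61.5% had a log2 difference above 0 in MOLM-13 (median 0.05) and 71.9% in ER-Hoxa9 (median 0.12). Lists of co-repressor subunits, PRC2 subunits, other histone methyltransferases, other JmjC proteins, SAGA and ATAC subunits and arginine methylation partners held 0 genes with an adjusted p under 0.05 in either line. Of 27 co-repressor subunits in which HDAC1, HDAC2 and HDAC3 act, 14 had a log2 difference above 0 in MOLM-13 (median 0.02) and 19 in ER-Hoxa9 (median 0.11). HMG20B, a CoREST subunit and the most abundant of the list in MOLM-13, had 90.3, 94.2 and 98.2 TPM with WM-1119 and 105.1, 101 and 98.3 TPM with DMSO. Of 11 PRC2 subunits 7 lay above 0 in MOLM-13 (median 0.14) and 9 in ER-Hoxa9 (median 0.16). Of SAGA and ATAC subunits, 10 of 21 lay above 0 in MOLM-13 (median -0.01) and 12 of 19 in ER-Hoxa9 (median 0.09). For the other methyltransferases it was 5 of 16 (median -0.04) and 10 of 16 (0.01), for the other JmjC proteins 8 of 11 (0.10) and 6 of 11 (0.11), and for the arginine methylation partners 4 of 8 in each (0.03 and 0.00).

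Markers of proliferation and maturation lay mostly on 1 side, so their levels are given. Of 20 S and M phase genes 20 had a log2 difference above 0 in ER-Hoxa9, against 71.9% of all genes, with a median of 0.70. Their summed level was 2660.0 to 2870.4 TPM in WM-1119 libraries and 1702 to 2325 TPM in DMSO libraries. The lower DMSO sum was that of replicate 1, and the median without that library was not computed. In MOLM-13, 19 of 20 lay above 0, against 61.5% of all genes, with a median of 0.18. Their sums there were 1329 to 2633 TPM with WM-1119 and 944 to 2610.1 TPM with DMSO. Of 16 neutrophil maturation markers, 6 could be tested in MOLM-13 and 8 in ER-Hoxa9. The others averaged under 1 TPM or were not listed. Above 0 lay 6 of 6 tested markers in MOLM-13, against 61.5% of all genes, and 7 of 8 in ER-Hoxa9, against 71.9%. Their sums were 185 to 231 TPM with WM-1119 and 112 to 162 TPM with DMSO in MOLM-13, and 169.6 to 369 TPM with WM-1119 and 192 to 254 TPM with DMSO in ER-Hoxa9. The largest part of the mouse sums was Lcn2, the 1 tested gene below 0. It had 261 and 91.5 TPM with WM-1119 and 216 and 138 TPM with DMSO. Of 16 monocyte and macrophage markers, 11 could be tested in MOLM-13 and 8 in ER-Hoxa9. Above 0 lay 10 of 11 and 7 of 8 of these markers, against the same shares of all genes. Their sums were 2576 to 3858 TPM with WM-1119 and 998 to 2515 TPM with DMSO in MOLM-13, and 131 to 137 TPM with WM-1119 and 87.5 to 129 TPM with DMSO in ER-Hoxa9. Here the largest part of the mouse sums was Ccr2, again the 1 tested gene below 0. It had 78.1 and 81.6 TPM with WM-1119 and 71.8 and 102 TPM with DMSO. None of the markers was called, LCN2 was listed at 0 in MOLM-13, and Fpr1 and Lyz2 in ER-Hoxa9. In bulk RNA a change in the share of a cell type or stage and a change of RNA per cell cannot be told apart, and the part of these markers in the results was not tested.

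The myeloid identity of the lines was checked on a list of 13 progenitor markers, of which 13 were listed in the human and 12 in the mouse table. PRTN3, a granule protease, led them in MOLM-13 and in ER-Hoxa9 it was Ctsg, another granule protease. The list sums were 9373 to 13974 TPM with WM-1119 and 7595 to 13504 TPM with DMSO in MOLM-13, and 7195 to 7821 TPM with WM-1119 and 4856 to 6647 TPM with DMSO in ER-Hoxa9. CD34 was listed at 0 in all MOLM-13 libraries. Of markers of other cell types, MS4A1 and PF4 were listed at 0 throughout MOLM-13, and Cd3e and Ms4a1 throughout ER-Hoxa9, while the eosinophil granule gene PRG2 led that list in MOLM-13 and the mast cell gene Cpa3 in ER-Hoxa9. The list sums were 236 to 343 TPM with WM-1119 and 174 to 348 TPM with DMSO in MOLM-13, and 356 to 917 TPM with WM-1119 and 567 to 842 TPM with DMSO in ER-Hoxa9. Within the list the B cell gene Cd79a had 12.1 and 7.76 TPM with WM-1119 and 1.35 and 3.58 TPM with DMSO in ER-Hoxa9, a log2 difference of 1.70 (adjusted p = 0.305, limma). The platelet gene Gp9 had 28.6 and 26.03 TPM with WM-1119 and 5.67 and 11.5 TPM with DMSO, a log2 difference of 1.63 (adjusted p = 0.3, limma). Neither gene overlapped between the treatments, and their part in the results was not tested.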

How the data were processed

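RNA was sequenced in 10 libraries, whose line and treatment come from the labels. For each line the authors deposited a table of TPM by gene symbol. Per the submitters' processing notes the tool was Salmon and the builds were hg38 and mm10; no version or annotation is given in the sources used here. TPM keep no depth, so no counting interval is given, and an exact 0 is read as listed at 0. A gene that takes more of a library lowers the TPM of all others. Columns were matched to samples by treatment and number, the mouse columns carry another line name and were taken as ER-Hoxa9, and 0 columns were left unassigned.

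For each line, genes averaging at least 1 TPM were put on the log2(TPM + 1) scale and fitted with limma 3.58.1 (eBayes with trend) in R 4.3.3, with two-sided Benjamini-Hochberg adjusted p over all genes, called under 0.05. A difference on this scale understates the change of low genes. A fit over symbols of both tables tested the difference between the lines. Same-numbered MOLM-13 libraries deviated together from their group means, with r of 0.52, 0.44 and 0.61 across genes, so the numbers were taken to pair them, and a fit with the replicate block stands beside the other. No pair of libraries held identical values. The scripts were tested on simulated data.

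The genes and lists were chosen with earlier results of these data known. Values in every library are given for the genes with the smallest p, the most abundant of each class, 15 fixed genes, and those on the same side in both lines or with a blocked p under 0.05, the last kinds and a few further examples chosen after their values were seen. Promoter sequences are RefSeq's on GRCh38.p14, found for 64 of 67 human genes, and lengths are of GENCODE release 29, whose annotation may differ from the authors'. Mouse sequences were not used here. Alternatives were the pseudocount, the filter, scaling, removal of ribosomal protein or microRNA entries, the block, the variance trend and leaving out each library. The plots were made in Python 3.11.15 with matplotlib 3.10.9.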

Additional observations from a re-analysis of the deposited data

How the results depend on the processing

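The count of these genes called was 0 under every setting run in MOLM-13, in ER-Hoxa9 and for the difference between the lines. The limits are the few libraries, TPM without depth, and a general shift in ER-Hoxa9 that turns small differences. Over all genes the MOLM-13 count of 1 became 0 with a pseudocount of 5 TPM, with no filter and with the replicate block, 2 without the variance trend, and 0 to 6 when a library was left out. The ER-Hoxa9 count of 4 became 0 with a pseudocount of 0.1 TPM, with no filter, with a mean of at least 5 TPM and with the replicate block, 2 with a pseudocount of 5 TPM or without microRNA entries, 16 without the variance trend and 0 whichever library was left out. The cause was not tested.

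The replicate block changed no call of a gene described here. In ER-Hoxa9, whose numbers share only a number (r = 0.21 across genes between same-numbered deviations, with 2 pairs), the block left 0 of 63 called, with a lowest adjusted p of 0.2. For the difference between the lines it left 0 of 62 called, with a lowest adjusted p of 0.235.

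Scaling reversed small log2 differences. In MOLM-13 median-of-ratios scaling and quantile normalization gave SIRT1 -0.055 and -0.0504, SETD2 -0.028 and -0.026, CREBBP -0.0405 and -0.035, and HDAC9 -0.025 and -0.022. Removing ribosomal protein genes gave SIRT1 -0.045, SETD2 -0.0175, CREBBP -0.0299 and HDAC9 -0.014, and removing microRNA entries gave SIRT1 -0.0052. In ER-Hoxa9 the same pair of scalings gave Kdm1a -0.0175 and -0.0199, Kdm6b -0.066 and -0.0635, Setd2 -0.0549 and -0.059, Prmt1 -0.033 and -0.0227, Crebbp -0.089 and -0.149, and Ep300 -0.051 and -0.0617. Removing ribosomal protein genes gave Kdm6b -0.0147, Setd2 -0.00376, Crebbp -0.0437 and Ep300 -0.000563. The cause was not tested.

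Leaving out a library also reversed signs. In MOLM-13, HDAC2 ranged from -0.20 to 0.0804, HDAC3 from -0.046 to 0.28, HDAC10 from -0.20 to 0.16, SIRT1 from -0.12 to 0.089, KDM2B from -0.0099 to 0.35, KDM4B from -0.43 to 0.053, KDM6B from -0.26 to 0.12, EHMT2 from -0.053 to 0.24 and EZH1 from -0.18 to 0.0086. EZH2 ranged from -0.37 to 0.18, SETD2 from -0.20 to 0.33, SUV39H1 from -0.28 to 0.42, PRMT1 from -0.14 to 0.18, PRMT5 from -0.25 to 0.096, PRMT7 from -0.27 to 0.12, CREBBP from -0.24 to 0.31, EP300 from -0.47 to 0.25 and KAT2A from -0.28 to 0.15. HDAC5 ranged from -0.038 to 0.38, HDAC7 from -0.056 to 0.41, HDAC8 from -0.097 to 0.27, HDAC9 from -0.085 to 0.22 and KDM3A from -0.39 to 0.25. In ER-Hoxa9, Hdac2 ranged from -0.13 to 0.0304, Hdac5 from -0.16 to 0.082, Sirt1 from -0.17 to 0.064, Kdm1a from -0.0022 to 0.21, Kdm4a from -0.069 to 0.065 and Kdm6b from -0.037 to 0.15. Hdac8 ranged from -0.21 to 0.13 and Smyd2 from -0.13 to 0.056. Ezh1 ranged from -0.16 to 0.024, Ezh2 from -0.061 to 0.48, Setd2 from -0.0093 to 0.14, Crebbp from -0.13 to 0.18 and Ep300 from -0.045 to 0.18. Where 1 library remained in a group it was assumed to vary like the others. The other differences kept their sign in every setting in which they were recomputed. They were not recomputed for the blocked fits that left out a MOLM-13 pair.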
